A study of Homo sapiens with 12 samples.

Results

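The LAPTM genes LAPTM5, LAPTM4A and LAPTM4B encode the lysosome-associated multispanning membrane proteins, and their mRNA was measured in 2 melanoma cell lines. The members were taken as the rows whose gene symbol equals one of these names, which gave 3 of 58307 rows with a gene name. Each symbol had 1 row, and the row identifiers were carried by 0 other symbols. The family was selected on mRNA values of these libraries, and which of them entered the choice is not recorded, so the differences of LAPTM5 between groups are given below as a description and without a test. Values of LAPTM4A and LAPTM4B may have entered it too, so their p-values may not be independent of the choice.

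LAPTM proteins cross the lysosomal and late endosomal membrane several times and carry short proline-tyrosine motifs in their tails, which bind ubiquitin ligases of the NEDD4 family. LAPTM5 is best known from blood cells, where NEDD4 and the GGA adaptors sort it to the lysosome and where it lowers antigen receptors at the cell surface. LAPTM4A is expressed in most tissues and is needed for synthesis of the glycolipid Gb3. LAPTM4B is raised in many carcinomas and can bring the leucine transporter SLC7A5-SLC3A2 to the lysosome, the compartment at which amino acids activate mTORC1, the kinase complex that rapamycin inhibits.

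A375 and SK-MEL-28, both established lines from human malignant melanoma, were given etoposide, a topoisomerase II poison, either alone or together with rapamycin. Each of the 4 groups (A375 etoposide, A375 etoposide + rapamycin, SK-MEL-28 etoposide, SK-MEL-28 etoposide + rapamycin) held 3 libraries of polyA-enriched RNA. Every group received etoposide, so a comparison of rapamycin here is of rapamycin added to etoposide, and cells without etoposide were not analysed here. Each condition is represented by these 2 lines only, and the labels number the replicates without saying how they were raised, so p-values measure the spread between these libraries.

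Library totals ranged from 28190672 to 32499659 counts. Of 9 melanocyte lineage markers, SOX10, S100B and MITF were well detected, while the 6 pigment cell genes PMEL, MLANA, TYR, DCT, TYRP1 and GPR143 had a mean of at most 2.5 CPM in any group. The summed level of the 9 markers was 481 to 598 CPM in A375 with etoposide and 400 to 656 CPM with rapamycin added, and 426 to 551 and 294 to 526 CPM in SK-MEL-28. Within this list MITF, the melanocyte master regulator, fell with rapamycin, by less than 1.5-fold, by 0.51 on the log2 scale in A375 (edgeR adjusted p = 0.00248) and by 0.50 in SK-MEL-28 (adjusted p = 0.0032). S100B fell by 0.58 in A375, also below 1.5-fold (adjusted p = 4.13e-05), and was at -0.16 in SK-MEL-28 (adjusted p = 0.16, and 0.0256 without rapamycin replicate 1), and DCT, at 6 to 24 counts in A375, fell by 1.70 there (adjusted p = 0.0106) and was at 0.11 in SK-MEL-28 (adjusted p = 0.817). CPM, the usual depth-normalized count, was computed on library totals after TMM scaling, which corrects them for differences in composition.

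LAPTM5 (ENSG00000162511.8) lies on the minus strand of chromosome 1 at 30732469 to 30757774 of GRCh38, and LAPTM4A (ENSG00000068697.7) on the minus strand of chromosome 2 at 20032650 to 20051628. The position of LAPTM4B is given beside its levels. The RefSeq promoter table (GRCh38.p14) held 2 of the 3 members, and the 250 bases before their starts are shown because the genes responded by different amounts. Capitals mark the hits of the motifs searched on both strands, 5′ to 3′ on the gene's strand.

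LAPTM5: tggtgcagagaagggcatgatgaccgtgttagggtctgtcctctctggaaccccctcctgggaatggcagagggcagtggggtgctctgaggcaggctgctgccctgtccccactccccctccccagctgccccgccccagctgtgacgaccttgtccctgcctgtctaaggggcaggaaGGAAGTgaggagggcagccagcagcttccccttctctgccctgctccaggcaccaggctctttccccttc

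LAPTM4A: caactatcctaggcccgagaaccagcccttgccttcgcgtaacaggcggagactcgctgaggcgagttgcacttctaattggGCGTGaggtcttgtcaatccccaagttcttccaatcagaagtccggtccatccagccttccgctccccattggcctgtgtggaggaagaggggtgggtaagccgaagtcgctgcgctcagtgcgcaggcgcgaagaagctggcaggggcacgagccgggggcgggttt

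The LAPTM5 window (chr1:30757775-30758024, minus strand) had a GC content of 64.8% and 3 CpG dinucleotides. Its capitals mark GGAAGT, the core bound by ETS factors such as PU.1, at 65 to 70 bases before the start, and 19.5% of the 35116 promoters in the table held this motif. SPI1, which encodes PU.1, had 0 to 10 counts per library, and binding was not tested. The LAPTM4A window (chr2:20051629-20051878, minus strand) had a GC content of 61.2% and 18 CpG dinucleotides, against medians of 58.0% and 11 over all promoters. Its capitals mark GCGTG, a hypoxia response core, at 164 to 168 bases before the start, a motif in 32.2% of promoters. Neither window held CACGTG (6.34% of promoters), CATGTG (9.42%) or ACGTG (18.5%), letters contained in sites of the MITF and TFE family and, for ACGTG, of hypoxia-inducible factors. ACGTG lies within CACGTG, so hits of these overlap.

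LAPTM5 had the lowest mRNA of the family in every group and the widest range between groups as a fold. In A375 with etoposide, its level in the 3 libraries was 12.0, 11.9 and 11.8 CPM, from 337 to 367 counts. With rapamycin added, the levels were 3.99, 3.37 and 3.49 CPM, from 100 to 114 counts. All 3 rapamycin libraries lay below all 3 etoposide libraries, with a mean of 3.62 ± 0.331 CPM (SD, n = 3) against 11.9 ± 0.0950 CPM (SD, n = 3). The counting error alone, for counts that are independent reads, would be a CV of 5.34% at the mean of the etoposide libraries and 9.71% at that of the rapamycin libraries, against observed CVs of 0.797% and 9.17%. These are bulk libraries, in which fewer cells with a transcript and less of it per cell cannot be told apart.

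In SK-MEL-28 with etoposide, LAPTM5 was at 23.1, 23.3 and 22.1 CPM, from 704 to 727 counts. With rapamycin added it was at 6.33, 6.50 and 5.17 CPM, from 159 to 196 counts. The groups again did not overlap, with means of 22.8 ± 0.650 and 6.0 ± 0.725 CPM (SD, n = 3 each). LAPTM5 was thus highest in SK-MEL-28 with etoposide, followed by A375 with etoposide, SK-MEL-28 with rapamycin and A375 with rapamycin, and no neighbours in that order overlapped.

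**Figure D1:**
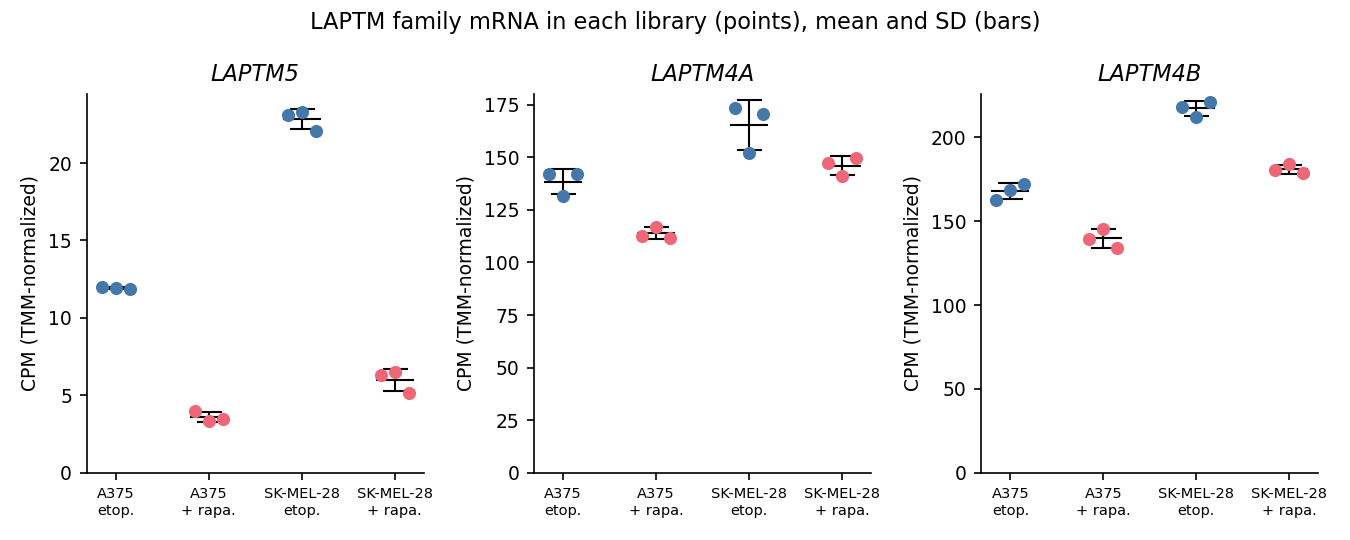
Level of each LAPTM gene in CPM (linear axis from 0) in the 12 libraries, with etoposide alone (etop., blue) and with rapamycin added (+ rapa., red). Points are libraries and bars the mean and SD of 3. The LAPTM5 points lie at 11.8 to 12.0 CPM with etoposide and 3.37 to 3.99 with rapamycin in A375, and LAPTM4A and LAPTM4B change less relative to their own levels.

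LAPTM4A was at 142, 132 and 142 CPM in A375 with etoposide and at 113, 117 and 112 CPM with rapamycin added. In SK-MEL-28 it was at 174, 152 and 170 CPM with etoposide and at 147, 141 and 150 CPM with rapamycin. The rapamycin libraries were below the etoposide libraries of the same line in both lines. The order of the group means was SK-MEL-28 etoposide, SK-MEL-28 with rapamycin, A375 etoposide and A375 with rapamycin, and the middle pair of groups overlapped.

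LAPTM4B (ENSG00000104341.17), on the plus strand of chromosome 8, was at 163, 169 and 172 CPM in A375 with etoposide and at 140, 145 and 134 CPM with rapamycin added. In SK-MEL-28 the levels were 218, 212 and 221 CPM, and 181, 184 and 179 CPM with rapamycin. It followed the order of LAPTM4A, with no overlap between neighbouring groups.

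Per kilobase of exon the order of the members changed. LAPTM4A, with the shortest exon length (1546 bases), made up 58.8% to 62.1% of the family's CPM per kilobase, LAPTM4B 36% to 37.4%, and LAPTM5 0.945% to 3.89%. LAPTM5 took 2.53% in A375 with etoposide and 0.945% with rapamycin, and 3.89% and 1.21% in SK-MEL-28. These shares use the annotated exon length and not the transcripts that the cells used.

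Ratios of counts within a library do not depend on scaling between libraries. LAPTM4A counts were 11.6 ± 0.508 times those of LAPTM5 in A375 with etoposide and 31.7 ± 3.28 times with rapamycin (SD, n = 3 each). In SK-MEL-28 the ratio was 7.25 ± 0.639 and 24.6 ± 3.82. The ratio of LAPTM4B to LAPTM4A in A375 was 1.21 ± 0.0690 with etoposide and 1.23 ± 0.0212 with rapamycin. In SK-MEL-28 it was 1.32 ± 0.0727 and 1.24 ± 0.0577, and the treatments overlapped in both lines.

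Etoposide + rapamycin was compared with etoposide in each line by the edgeR quasi-likelihood test, with p-values adjusted by Benjamini-Hochberg over all genes tested. Genes had to pass an adjusted p of 0.05 and change by more than 1.5-fold to be called. LAPTM5 fell by 1.72 on the log2 scale in A375 (SE 0.122, 3.29-fold lower) and by 1.93 in SK-MEL-28 (SE 0.108, 3.82-fold lower). Of all genes tested, 2.8% were called lower in A375 and 3.14% in SK-MEL-28. LAPTM5 had the 52nd lowest log2 fold change of 18844 genes in A375 and the 65th lowest of 18897 in SK-MEL-28.

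LAPTM4A and LAPTM4B fell by less than 1.5-fold in both lines, and their p-values may not be independent of the choice of the family. In A375, LAPTM4A fell by 0.28 on the log2 scale (SE 0.0480, adjusted p = 0.00103) and LAPTM4B by 0.26 (SE 0.0474, adjusted p = 0.00147). In SK-MEL-28, LAPTM4B fell by 0.27 (SE 0.0474, adjusted p = 0.00181) and LAPTM4A by 0.18 (SE 0.0592, adjusted p = 0.0485). An adjusted p under 0.05 with a lower level, whatever the fold, was found for 13.8% of genes in A375 and for 10.1% in SK-MEL-28, and lower groups without overlap for 21.9% and 18.2%. The LAPTM4A difference in SK-MEL-28 was close to the threshold, and without etoposide replicate 1 or 3 or rapamycin replicate 1, 2 or 3 its adjusted p was 0.138, 0.172, 0.0865, 0.143 and 0.0907, respectively.

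**Figure D2:**
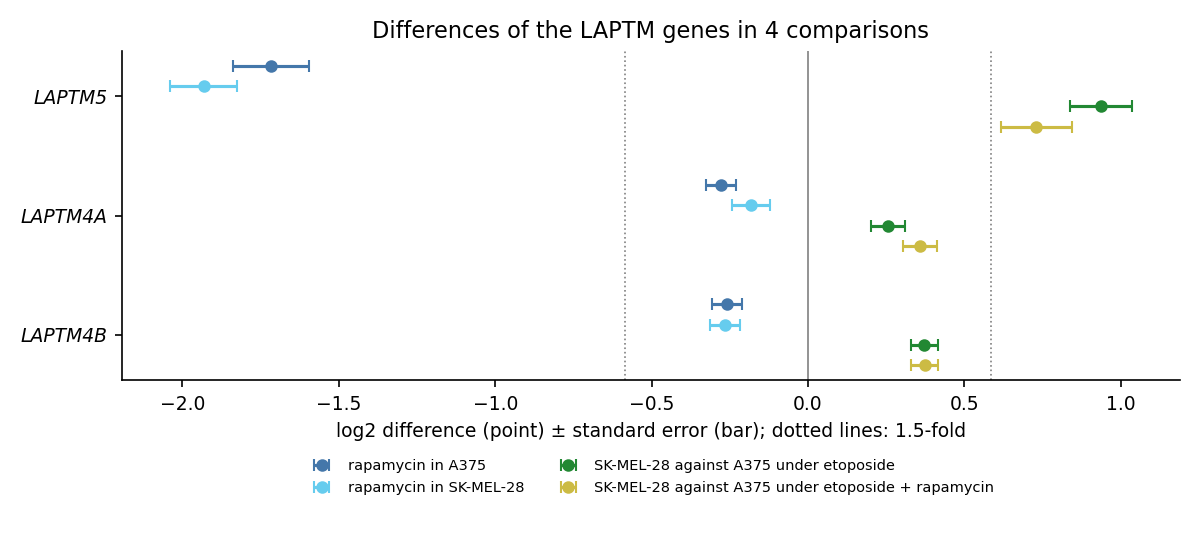
Log2 differences of the 3 LAPTM genes, with bars of 1 standard error on each side, for rapamycin in each line and for SK-MEL-28 against A375 under each treatment. Dotted lines mark 1.5-fold. LAPTM5 lies at -1.72 and -1.93 for rapamycin, whereas LAPTM4A and LAPTM4B lie between -0.28 and -0.18.

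Whether rapamycin acted differently in the lines was read from the interaction in the fit of all 12 libraries, as the SK-MEL-28 change minus the A375 change. For LAPTM5 this difference was -0.21 on the log2 scale (SE 0.151). It was 0.10 for LAPTM4A (SE 0.0763, adjusted p = 0.494) and 0.0014 for LAPTM4B (SE 0.0610, adjusted p = 0.994). Here a gene was called at an adjusted p under 0.05 with no fold threshold, which 5.62% of genes (1130) passed, and neither LAPTM4A nor LAPTM4B was among them. That count fell to 594 without A375 rapamycin replicate 3, 642 without A375 etoposide replicate 3, 710 without SK-MEL-28 rapamycin replicate 2, and 616 and 705 without SK-MEL-28 etoposide replicates 2 and 3. The count rose to 1276 without A375 etoposide replicate 1 and to 1315 without SK-MEL-28 etoposide replicate 1. With 1 library left out, the LAPTM5 difference ranged from -0.27 to -0.11 and that of LAPTM4A from 0.041 to 0.14.

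All 3 members were higher in SK-MEL-28 than in A375 under both treatments, without overlap between the lines. As its values may have entered the choice of the family, LAPTM5 is again given without a test. Under etoposide, LAPTM5 was higher by 0.94 on the log2 scale (SE 0.0989), LAPTM4A by 0.26 (SE 0.0539, adjusted p = 0.0014) and LAPTM4B by 0.37 (SE 0.0431, adjusted p = 3.66e-06). With rapamycin the differences were 0.73 (SE 0.114), 0.36 (SE 0.0542, adjusted p = 5.44e-05) and 0.37 (SE 0.0434, adjusted p = 3.21e-06). LAPTM5 alone of the family differed by more than 1.5-fold. Of all genes, 5.39% under etoposide and 6.17% with rapamycin were called higher, which needs an adjusted p under 0.05 as well as that fold. An adjusted p under 0.05 with a higher level, whatever the fold, was found for 15.1% and 18.9% of genes, and higher groups without overlap for 20.9% and 24.9%.

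Since LAPTM5 is a blood cell gene, 16 leukocyte markers were examined beside it. Their summed level moved in the same direction, from 30.1 to 31.1 CPM with etoposide to 15.6 to 17.5 CPM with rapamycin in A375, and from 42.5 to 44 to 21.5 to 26.1 CPM in SK-MEL-28. LYZ, which encodes lysozyme, made up 37.2% to 77.1% of that sum and fell by 1.32 in A375 (SE 0.111, adjusted p = 4.93e-06) and by 0.85 in SK-MEL-28 (SE 0.102, adjusted p = 7.91e-05). Without LYZ the sum was 13.5 to 14.2 and 9.73 to 10.3 CPM in A375, and 10.6 to 12 and 5.62 to 6.71 CPM in SK-MEL-28.

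All 6 leukocyte markers tested in A375 and all 7 tested in SK-MEL-28 had a negative log2 fold change, the smallest at -0.0058 in A375. The medians of all genes were -0.0051 and 0.0053. A low gene could pass the count filter through the group where it was higher. PTPRC, the common leukocyte antigen, had 14 to 15 counts with etoposide and 0 to 8 with rapamycin in SK-MEL-28. Among markers too low to test, SPI1 went from 0.0635 to 0.281 CPM with rapamycin in SK-MEL-28 and from 0.226 to 0.0449 in A375. CD14 went from 0.106 to 0.0561 CPM in SK-MEL-28 and from 0.0234 to 0.17 in A375. Called lower were LYZ in A375 and LYZ and CORO1A, an actin regulator, in SK-MEL-28, against 2.8% and 3.14% of all genes. Between the lines under etoposide, LYZ was called higher in SK-MEL-28, while the markers LCP2 and ITGAM were called lower. Of all 20101 genes, 1083 were called higher and 1439 lower there. Counts differed between the markers. With etoposide in A375 and SK-MEL-28, ITGAM had 60 to 85 and 35 to 43 counts and CSF1R 41 to 61 and 43 to 62. CD14 had 0 to 2 and 0 to 5 there. The 6 lymphocyte markers had at most 11 counts in any library and PTPRC at most 18. Of the 16 genes, 3, 2, 3 and 5 were listed at 0 in all libraries of the 4 groups in the order given above. The part of leukocyte transcripts in the LAPTM5 values was not tested.

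The 5 fibroblast markers summed to 17.6 to 22.4 CPM with etoposide and 13.2 to 13.6 CPM with rapamycin in A375, and to 31.6 to 39.2 and 21.2 to 24.8 CPM in SK-MEL-28. Of the 4 tested in each line, 2 were called lower in A375 and 1 in SK-MEL-28, against 2.8% and 3.14% of all genes. These were LUM and DCN, which encode matrix proteoglycans, in A375, and LUM in SK-MEL-28. DCN missed the threshold without rapamycin replicate 2 (-0.53, adjusted p = 0.0694) or etoposide replicate 3 (-0.49, adjusted p = 0.0871), and LUM in SK-MEL-28 was below 1.5-fold without etoposide replicate 1 (-0.57). The 4 epithelial markers summed to 9.62 to 10.6 and 7.21 to 10.4 CPM in A375, and to 7.06 to 8.07 and 5.39 to 6.53 CPM in SK-MEL-28.

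Few other genes of the lysosomal membrane were called. Of 35 tested, 0 were called higher and 1 lower in A375 (median log2 fold change -0.0712), and 1 higher and 0 lower in SK-MEL-28 (median 0.0218), where 5.89% and 4.99% of all genes were called and the medians of all genes were -0.0051 and 0.0053. At an unadjusted p under 0.05, 7 were higher and 13 lower in A375, while SK-MEL-28 had 4 higher and 6 lower, and DESeq2 called 0 in SK-MEL-28. Of all genes, 19.2% were higher and 19.6% lower at that level in A375, and in SK-MEL-28 15.4% and 16.3%, which also holds for the counts below. SLC17A5, the lysosomal sialic acid exporter, fell by 0.74 in A375 (SE 0.0823, adjusted p = 4.58e-05) and, below 1.5-fold, by 0.41 in SK-MEL-28 (adjusted p = 0.00484). CD68, a glycoprotein of macrophage lysosomes, was 0.64 higher in SK-MEL-28 (SE 0.196, adjusted p = 0.0384) and, below 1.5-fold, 0.53 higher in A375 (adjusted p = 0.0314), but its groups overlapped in both lines. In A375 its adjusted p was 0.155, 0.0744, 0.106 and 0.0901 without rapamycin replicates 1 and 3 and etoposide replicates 1 and 2, and it was called there, at 0.69 and 0.71, without rapamycin replicate 2 (adjusted p = 0.00864) or etoposide replicate 3 (adjusted p = 0.00862). In SK-MEL-28 the call was lost with DESeq2 (adjusted p = 0.158) and without rapamycin replicate 1, at 0.37, without rapamycin replicate 3, at 0.61, or without etoposide replicate 1, 2 or 3, at 0.57, 0.67 and 0.67 (adjusted p from 0.0816 to 0.166).

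Among the remaining genes of that list, CD63, a tetraspanin, changed by -0.05 in A375 and 0.05 in SK-MEL-28 (adjusted p = 0.511 and 0.516), and LAMP1, a major lysosomal glycoprotein, by -0.11 and -0.06 (adjusted p = 0.0598 and 0.378). CLCN7, a chloride-proton exchanger, was 0.17 and 0.23 higher (adjusted p = 0.0138 and 0.00922), below 1.5-fold, and in A375 its adjusted p was 0.0526 without rapamycin replicate 3 and 0.0668 without etoposide replicate 3.

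Of 19 genes for NEDD4 family ligases, their adaptors and the GGA proteins, edgeR called 0 in A375 and 0 in SK-MEL-28, as did DESeq2. At an unadjusted p under 0.05, 7 were higher and 5 lower in A375, while SK-MEL-28 had 4 higher and 3 lower, and the median log2 fold changes were -0.0072 and 0.0082. WWP2, a ligase of this family, was 0.29 higher in A375 (adjusted p = 0.00216) and 0.20 higher in SK-MEL-28 (adjusted p = 0.0149, and 0.0532 without rapamycin replicate 3 and 0.0582 without etoposide replicate 2 of that line). NDFIP1, an adaptor that recruits these ligases, fell by 0.25 in A375 (adjusted p = 0.00427) and changed by -0.03 in SK-MEL-28 (adjusted p = 0.738). The ligases NEDD4L and ITCH changed by -0.10 and -0.08 in A375 (adjusted p = 0.207 and 0.269), and in SK-MEL-28 by -0.15 and -0.03 (adjusted p = 0.0732 and 0.756).

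Of 25 genes of lysosomal amino acid sensing, 0 were called higher and 1 lower in A375 (median -0.0826), and 0 in either direction in SK-MEL-28 (median -0.0217). At an unadjusted p under 0.05, 4 were higher and 9 lower in A375, and SK-MEL-28 had 1 higher and 6 lower, with 0 called by DESeq2. LAMTOR3, a subunit of the Ragulator scaffold, fell by 0.61 in A375 (SE 0.0780, adjusted p = 0.000126), and by 0.57, below 1.5-fold, without rapamycin replicate 3. RRAGA, a Rag GTPase, fell by 0.24 (adjusted p = 0.00206) and 0.26 (adjusted p = 0.00305). The partners of LAPTM4B showed changes of 0.11 and 0.02 for SLC7A5 (adjusted p = 0.0856 and 0.793) and of 0.08 and 0.02 for SLC3A2 (adjusted p = 0.203 and 0.789). MTOR was at 0.12 in A375 (adjusted p = 0.156, and 0.00555 without etoposide replicate 1) and at -0.11 in SK-MEL-28 (adjusted p = 0.264).

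**Figure D3:**
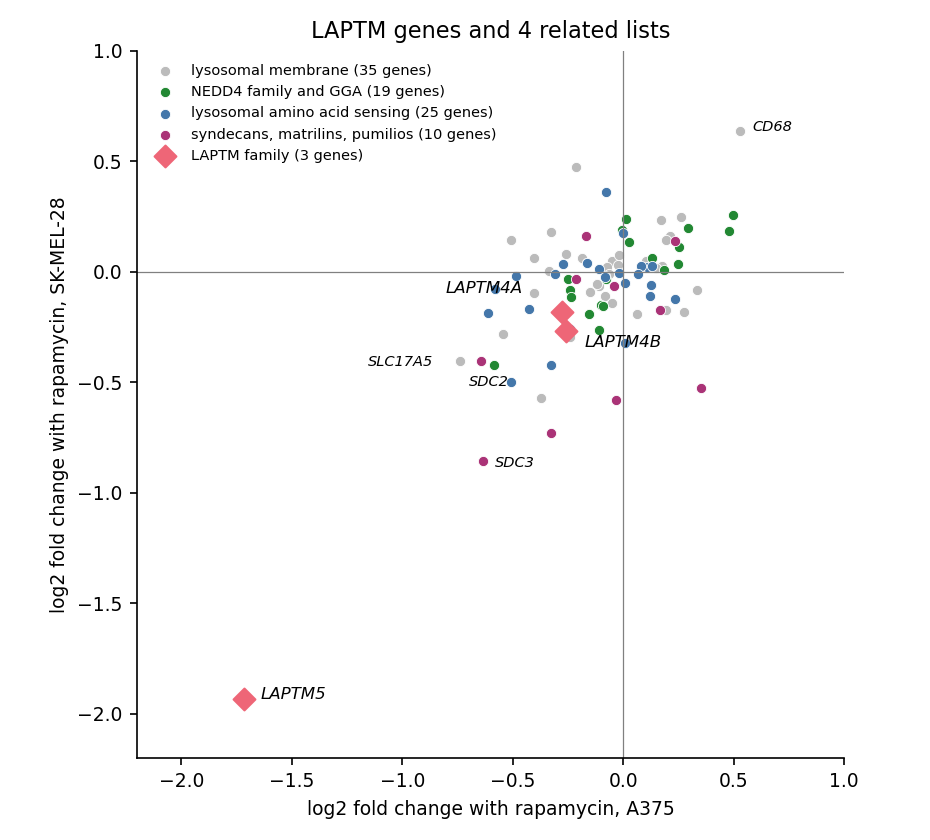
Log2 fold change with rapamycin in A375 (horizontal) and SK-MEL-28 (vertical) for the 3 LAPTM genes (diamonds) and 4 related gene lists (circles). LAPTM5 lies at -1.72 and -1.93, below the circles, and LAPTM4A and LAPTM4B lie among them.

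Each LAPTM gene lies near a matrilin gene, and LAPTM5 and LAPTM4A also lie near a syndecan gene, so a list of such genes and their relatives was examined too. Of 10 genes, 2 were called lower in A375, against 2.8% of all genes, and 1 was in SK-MEL-28, against 3.14%, with medians of -0.106 and -0.29. SDC3, a heparan sulfate proteoglycan 111.7 kb from LAPTM5, was at 356, 355 and 338 CPM in A375 with etoposide and at 221, 214 and 239 CPM with rapamycin. In SK-MEL-28 it was at 402, 414 and 405 CPM, and at 252, 202 and 222 CPM with rapamycin, so the groups did not overlap in either line. It fell by 0.64 in A375 (SE 0.0501, adjusted p = 3.07e-06) and by 0.86 in SK-MEL-28 (SE 0.0688, adjusted p = 3.23e-06).

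SDC2, on the chromosome of LAPTM4B at a distance of 1.16 Mb, fell by 0.64 in A375 (SE 0.0515, adjusted p = 3.35e-06) and, below 1.5-fold, by 0.41 in SK-MEL-28 (adjusted p = 0.00695). SDC1, 149.2 kb from LAPTM4A, was at 0.17 in A375 and -0.17 in SK-MEL-28 (adjusted p = 0.0543 and 0.0707, and 0.0473 and 0.0494 without A375 etoposide replicate 3 and SK-MEL-28 etoposide replicate 1). SDC4 was 0.24 higher in A375 (adjusted p = 0.00223) and at 0.14 in SK-MEL-28 (adjusted p = 0.093). PUM2, an RNA-binding repressor 197.1 kb from LAPTM4A, changed by -0.21 and -0.03 (adjusted p = 0.00407 and 0.755).

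Of the genes nearest to LAPTM5, MIR4420 lies within it and had 0 counts. MATN1-AS1, 5.64 kb away, changed by 0.46 in A375 and -0.37 in SK-MEL-28 (adjusted p = 0.113 and 0.305), and MATN1, a cartilage matrix gene 8.88 kb away, by -0.33 and -0.73 (adjusted p = 0.648 and 0.385). The non-coding RNA LINC01778, 66.4 kb away on the other side, had 49, 42 and 46 counts in A375 with etoposide and 21, 11 and 19 with rapamycin, and fell by 1.41 (SE 0.323, adjusted p = 0.00603). In SK-MEL-28 it changed by -0.76 (adjusted p = 0.132).

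Beside LAPTM4A, WDR35, a gene of ciliary transport, fell by 0.28 in A375 (adjusted p = 0.0442, and 0.143, 0.141, 0.0674 and 0.166 without rapamycin replicate 1, rapamycin replicate 3, etoposide replicate 2 and etoposide replicate 3) and changed by -0.12 in SK-MEL-28 (adjusted p = 0.329), and MATN3 changed by -0.03 and -0.58 (adjusted p = 0.955 and 0.319). Beside LAPTM4B, MTDH fell by 0.24 (adjusted p = 0.00407) and 0.17 (adjusted p = 0.0227). In SK-MEL-28 this adjusted p was 0.0503 to 0.0943 when any 1 library other than etoposide replicate 1 was left out.

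**Figure D4:**
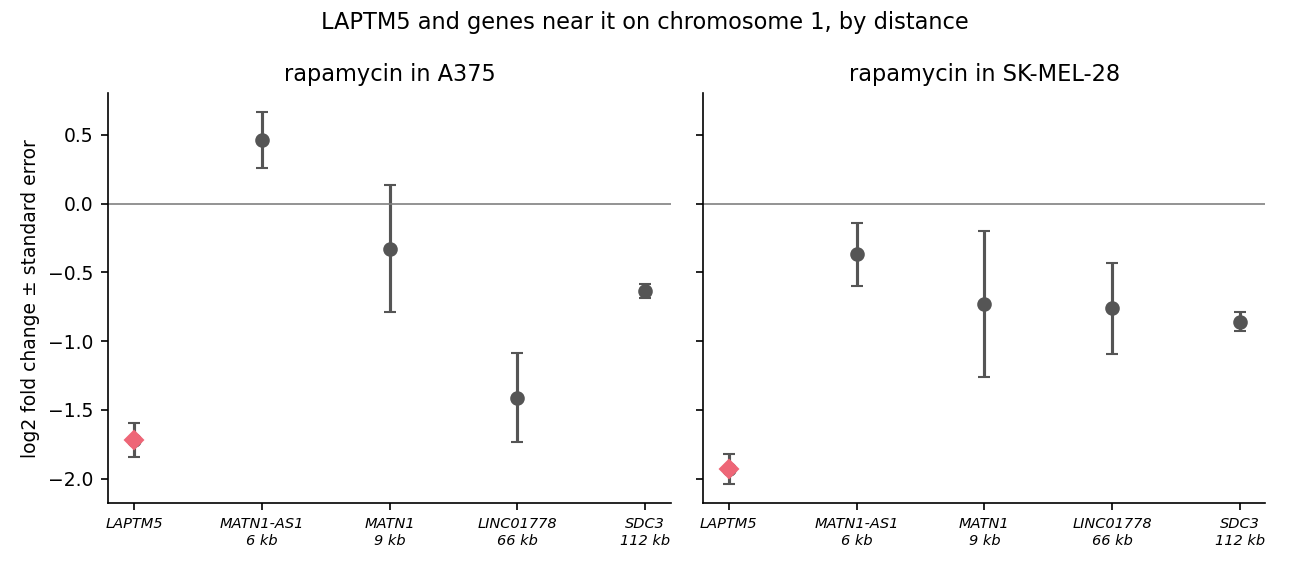
Log2 fold change with rapamycin of LAPTM5 and of annotated neighbours, matrilin and syndecan genes near it in each line (panels), with bars of 1 standard error, ordered by distance from LAPTM5. LAPTM5 has the lowest values, at -1.72 and -1.93, LINC01778 lies at -1.41 and -0.76, and SDC3 at -0.64 and -0.86.

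Likeness to each member was measured as the Euclidean distance over 3 log2 differences (rapamycin in A375, rapamycin in SK-MEL-28, and SK-MEL-28 against A375 under etoposide) among 18771 genes. For LAPTM5 the nearest genes were PRSS35 at a distance of 0.137, MYO1G at 0.32, TMPRSS3 at 0.338, RIMKLA at 0.356 and ALPK2 at 0.4. PRSS35 changed by -1.76, -1.81 and 0.89 where LAPTM5 changed by -1.72, -1.93 and 0.94. For LAPTM4A the nearest were KDELC2 (0.0185), MT-TH, ZNF791, COPB1 and SH2D4A (0.0307), and for LAPTM4B they were SNX1 (0.0198), HMBOX1, PLEKHB1, PCCB and SYNJ2BP (0.0353). The nearest gene to LAPTM5 was farther away than the 5 nearest to either LAPTM4 gene. Within a distance of 0.3 lay 1 gene for LAPTM5, 2160 for LAPTM4A and 1290 for LAPTM4B. Few genes changed by as much as LAPTM5, so its distances add nothing to the size of its changes. The 5 genes nearest to LAPTM5 had means of 20.8 to 180 counts, against 337 for LAPTM5.

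Sequence copies of LAPTM4B gave almost no counts. The pseudogene LAPTM4BP1 had 0 counts in all 12 libraries, and LAPTM4BP2 had 1 count, in SK-MEL-28 etoposide replicate 1.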

How the data were processed

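PolyA-enriched RNA from A375 and SK-MEL-28 cells given etoposide or etoposide + rapamycin was sequenced, 3 libraries per group. The authors deposited raw counts per gene and library, without normalization, and the submitters' processing notes name HISAT2, StringTie, DESeq2 and the build hg38. How StringTie estimates became counts is not given in the sources used here. The 5 rows with no gene name (0.000991% to 0.00529% of a library's counts) were left out. Depth was 28190672 to 32499659 counts per library.

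Tests used edgeR 4.0.16 in R 4.3.3 (filterByExpr with a minimum count of 10, TMM, glmQLFit and glmQLFTest) and p-values were adjusted by the Benjamini-Hochberg method across the tested genes. Each line was fitted alone for rapamycin, and 1 fit of 12 libraries gave the differences between lines and the interaction. Standard errors were taken as |log2 fold change| divided by √F. Exon lengths and positions came from GENCODE release 44 (GRCh38). Scripts were tested on simulated data.

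The members and gene lists were chosen with earlier results of these data known. Named genes were the members, up to 4 genes per list (those called, then by mean count), the 5 nearest genes by likeness (mean of at least 10 counts) and annotated neighbours. LYZ, CORO1A, LUM, DCN, MITF, S100B, DCT, SDC1 and the genes picked out for the interaction were named after their values were seen. The values of 1 gene of the lists are not reported here, and counts over its list include it. Alternatives were DESeq2 1.42.0, its size factors (RLE) in edgeR, unscaled totals, a filter of 1 count in any library or of 10 counts in every library, a block for replicate number, halved counts, 1 fit of all 12 libraries, and each library left out in turn.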

Additional observations from a re-analysis of the deposited data

Results flagged for a closer look

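Among the gene lists and markers, 15 genes were picked out because their rapamycin change differed between the lines by a test of the difference itself (edgeR quasi-likelihood interaction, adjusted p under 0.05 with no fold threshold, passed by 5.62% of all genes). Values are the SK-MEL-28 change minus the A375 change on the log2 scale. Of the 35 lysosomal membrane genes 6 were higher, LAMP2 at 0.35, SCARB2 at 0.27, MCOLN3 at 0.69, TMEM192 at 0.47, TMEM106B at 0.66 and OSTM1 at 0.32, and 2 were lower, TMEM175 at -0.36 and ABCA2 at -0.41. Of the 25 amino acid sensing genes LAMTOR3 was at 0.43, RRAGC at 0.47, FNIP1 at 0.51 and RPTOR at -0.35. SDC1 was at -0.33, and of the melanocyte markers DCT was at 1.82 and S100B at 0.42. LAMP2, TMEM106B, RRAGC and FNIP1 passed under every alternative run, with an adjusted p of at most 0.0344. Each of the other 11 missed the threshold without at least 1 library, with a highest adjusted p from 0.0564 for LAMTOR3 to 0.115 for OSTM1.

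LAMTOR3, a subunit of the Ragulator scaffold, was at 28.3, 29.8 and 30.0 CPM in A375 with etoposide and at 19.7, 19.7 and 18.1 CPM with rapamycin, and at 35.0, 31.8 and 34.2 CPM and 30.3, 31.0 and 27.8 CPM in SK-MEL-28. Its difference had an SE of 0.0982 and an adjusted p of 0.016, and it was 0.39 without A375 rapamycin replicate 3 (adjusted p = 0.0532) and 0.39 without SK-MEL-28 etoposide replicate 2 (adjusted p = 0.0564).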

How the results depend on the processing

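Of 1571 values recomputed under the alternatives, 1373 were counted as unchanged, as were 246 of 261 values of the LAPTM genes. For genes given with a test, this meant the same direction and side of the threshold. LAPTM5, given without a test, was judged by its shift against the spread within groups. Counts of called genes over a list were judged by their closeness to the main count. LAPTM5 ranged from -1.76 to -1.71 in A375 and from -1.97 to -1.93 in SK-MEL-28, and with 1 library left out from -1.79 to -1.67 and from -1.99 to -1.83. LAPTM4A in SK-MEL-28 missed the threshold with the filter of 1 count in any library, at -0.18 (adjusted p = 0.11), and ranged from -0.24 to -0.14 with 1 library left out. The LAPTM4B interaction, near 0, turned negative with RLE (-0.012), DESeq2 (-0.017) and the filters of 1 count (-0.0069) and 10 counts (-0.017), and ranged from -0.026 to 0.032 with 1 library left out.

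In SK-MEL-28, SLC7A5 and SLC3A2 were at -0.014 and -0.010 with library totals, and with 1 library left out SLC7A5 ranged from -0.00031 to 0.041, SLC3A2 from -0.0051 to 0.063, PUM2 from -0.083 to 0.0057 and ITCH from -0.068 to 0.019, and DCT from -0.071 to 0.28. In A375, MATN3 was at 0.0017 with counts halved and rounded, and with 1 library left out it ranged from -0.21 to 0.23 and MATN1 from -0.57 to 0.040. With library totals, 2 lysosomal membrane genes were called in each line, 1 NEDD4 family or GGA gene in A375 and 2 amino acid sensing genes in A375. The SK-MEL-28 lysosomal membrane count was 0 with DESeq2, the filter of 1 count and the single fit of 12 libraries, and the A375 NEDD4 family and GGA count was 1 with the filter of 10 counts and the single fit. With 1 library left out the lysosomal membrane counts ranged from 1 to 2 in A375 and 0 to 1 in SK-MEL-28, the NEDD4 family and GGA count in A375 from 0 to 1, and the amino acid sensing counts from 0 to 2 in A375 and 0 to 1 in SK-MEL-28. The interaction, called with no fold threshold, passed for 1130 genes, against 1699 with DESeq2 and 658 with the filter of 1 count. The causes were not tested.

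Within each line, deviations over all genes showed no pairing of etoposide with rapamycin libraries by replicate number. A correlation over all genes cannot show a pairing confined to some genes. Over 6 same-numbered pairs the correlation of deviations was -0.0298 to 0.0209, and 2 of 12 libraries correlated best with their own number. Libraries of different lines were not correlated, so an effect of replicate number shared by the lines was not tested. The ratio of LAPTM4B to LAPTM4A was highest in replicate 2 of every group. It was 1.283 and 1.243 there in A375 with etoposide and with rapamycin, and 1.399 and 1.306 in SK-MEL-28. With the replicate number as a block, LAPTM5 was at -1.72 in A375 and -1.94 in SK-MEL-28, LAPTM4A at -0.28 and -0.18, and LAPTM4B at -0.26 and -0.27, and the SK-MEL-28 lysosomal membrane count was 0, with CD68 at 0.58 (adjusted p = 0.0526). Of values under an adjusted p of 0.05 but with no call on fold, WDR35 in A375 was at adjusted p = 0.0668 under the block, and the interactions of OSTM1 and S100B at 0.0549 and 0.0523. With 3 libraries per group and LAPTM5 at 100 to 196 counts with rapamycin, small differences in this gene are the least precise of the family.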
